A study of Mus musculus with 8 samples.

Results

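The glucocorticoid receptor gene Nr3c1 and 9 genes commonly used as readouts of its activity were examined in retinal pigment epithelium (RPE) eyecups from mice lacking Bbs8. The members are Klf9, Nr3c1, Fkbp5, Tsc22d3, Sgk1, Zbtb16, Pdk4, Errfi1, Ddit4 and Cdkn1a, which make up 10 of the 31053 gene identifiers in the count tables, and all 10 were found by symbol. The members were selected on a measured value, since the list was drawn up around Klf9 after its log2 fold change between these Bbs8-/- and Bbs8+/+ libraries was known. The fold changes and adjusted p-values of members therefore describe where each gene stands among all genes, and they carry no independent support.

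Polyadenylated transcripts were counted by their 3′ ends (QuantSeq) in 4 Bbs8+/+ and 4 Bbs8-/- libraries. Both groups were untreated C57/Bl6 animals at postnatal day 11 (P11), and the controls were wild-type littermates. Bbs8 is listed in the annotation as Ttc8 and encodes a subunit of the BBSome, a complex that moves proteins into and out of cilia. It was deleted in the germline, so every cell type of the eyecup and every organ of the Bbs8-/- mouse lacked it. Eyecups were collected after removal of cornea, lens, retina and optic nerve, and they hold choroid and sclera besides the RPE. The hour of the day at collection is not given in the sources used here.

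Glucocorticoids are steroid hormones of the adrenal cortex that enter cells and bind the receptor encoded by Nr3c1. The free receptor is held in the cytoplasm by Hsp90 and its co-chaperones. Once bound to hormone it moves to the nucleus and regulates genes through inverted repeats of the hexamer AGAACA or through other transcription factors. Blood levels of the hormone follow a daily rhythm and rise with stress. Target genes such as Klf9, Tsc22d3, Fkbp5 and Per1 respond in many tissues, whereas Sgk1, Ddit4, Errfi1 and Cdkn1a also answer to other signals such as osmotic stress, growth factors, low oxygen or DNA damage.

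The sequences next to 1 start site each of 3 members are shown. For Sgk1 and Tsc22d3 the start site was picked because its window holds the receptor hexamer, so their contrast with Klf9 is partly set by that choice. The sequences come from the RefSeq promoter table on GRCm38.p6, the assembly behind mm10, and are written 5′ to 3′ on the gene's strand. Each covers the 250 bases before a start site, or the part of them outside annotated exons, and capitals mark AGAACA or its reverse complement TGTTCT. The Klf9 window is chr19:23140976-23141225 on the plus strand. The Sgk1 window is chr10:21993640-21993889 on the plus strand and precedes 1 of 6 start sites listed for this gene. The Tsc22d3 stretch of 113 bases is chrX:140600660-140600772 on the minus strand and belongs to 1 of 3 start sites.
Klf9: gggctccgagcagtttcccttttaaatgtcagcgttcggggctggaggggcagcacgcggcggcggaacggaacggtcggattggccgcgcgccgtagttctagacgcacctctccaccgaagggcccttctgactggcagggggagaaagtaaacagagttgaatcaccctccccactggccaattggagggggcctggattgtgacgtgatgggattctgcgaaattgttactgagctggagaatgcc
Sgk1: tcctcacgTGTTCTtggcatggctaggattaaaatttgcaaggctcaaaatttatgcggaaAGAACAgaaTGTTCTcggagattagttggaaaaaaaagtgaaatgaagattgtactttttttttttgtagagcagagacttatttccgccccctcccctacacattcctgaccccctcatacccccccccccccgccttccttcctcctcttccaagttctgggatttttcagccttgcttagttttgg
Tsc22d3: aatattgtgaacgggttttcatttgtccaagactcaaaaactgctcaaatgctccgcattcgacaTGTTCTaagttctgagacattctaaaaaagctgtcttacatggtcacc

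The Sgk1 window held the hexamer 3 times, at 242, 189 and 180 bases before the start site. The last 2 copies form the full inverted repeat, AGAACA followed after any 3 bases by TGTTCT, which overlaps both hexamers by construction. Searched on both strands, the single hexamer occurred in 5284 of 32851 promoter windows of this length (16.1%) and the full repeat in 3 of them. Windows were listed for 8 of the 10 members, with 17 start sites in all. The hexamer lay in 4 of the 17, namely 3 of Sgk1 and 1 of Tsc22d3, and the Klf9 window held none. A match in these letters is a description of the window and not a binding site. The reads come from 3′ ends, so the libraries do not tell which start site was in use.

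The libraries held between 1636725 and 2884983 gene counts each, and 3 counts, taken as the smallest level the depth could show, correspond to 1.04 to 1.83 CPM, which are counts scaled to the library total. Ttc8 was 14.6 to 21.6 CPM in Bbs8+/+ and 2.29 to 9.70 CPM in Bbs8-/-, with the highest remaining level in Bbs8-/- replicate 1 (log2 fold change -1.95, edgeR quasi-likelihood test, p-value adjusted over all tested genes, FDR, 2.74e-06). Transcripts of both Xist and 4 Y-linked genes were present in every library, although the methods count each animal as a replicate. The 4 Y-linked genes summed to 58.9 to 64.4 CPM in Bbs8+/+ and 108 to 119.5 CPM in Bbs8-/-, without overlap. All 10 RPE markers had reads, with 7 of 10 above 0 in log2 fold change. Best1, among these 7, was near the floor, at 0, 1, 4 and 2 reads in Bbs8+/+ and 2, 2, 10 and 4 in Bbs8-/-. The summed level of the 10 markers was 17521 to 18614 CPM in Bbs8+/+ and 18943 to 19311 CPM in Bbs8-/-. Ttr made up most of the sum (10937 and 11657 CPM on average), and Rpe65 averaged 1998 and 1824 CPM. At FDR 0.05, Otx2 and Krt18 were higher and Mitf was lower, while the other 7 did not pass. Among 13813 genes tested, 152 (1.1%) were higher and 157 (1.14%) lower in Bbs8-/- at FDR 0.05.

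Of the 10 members, 9 passed the filter of at least 1 CPM in at least 4 libraries. Klf9 was lower in Bbs8-/- and Sgk1 was higher at FDR 0.05, and the other 7 tested members did not pass. These 2 of 9 stand beside 2.24% of all tested genes, but nothing is read from that because the list was built with this comparison known. The median log2 fold change of the 9 was -0.03, beside 0.00 for all tested genes, with 5 members below 0 and 4 above. For 3 members, Klf9, Sgk1 and Tsc22d3, all Bbs8-/- libraries lay on 1 side of all Bbs8+/+ libraries, beside 7.38% of all tested genes.

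**Figure D1:**
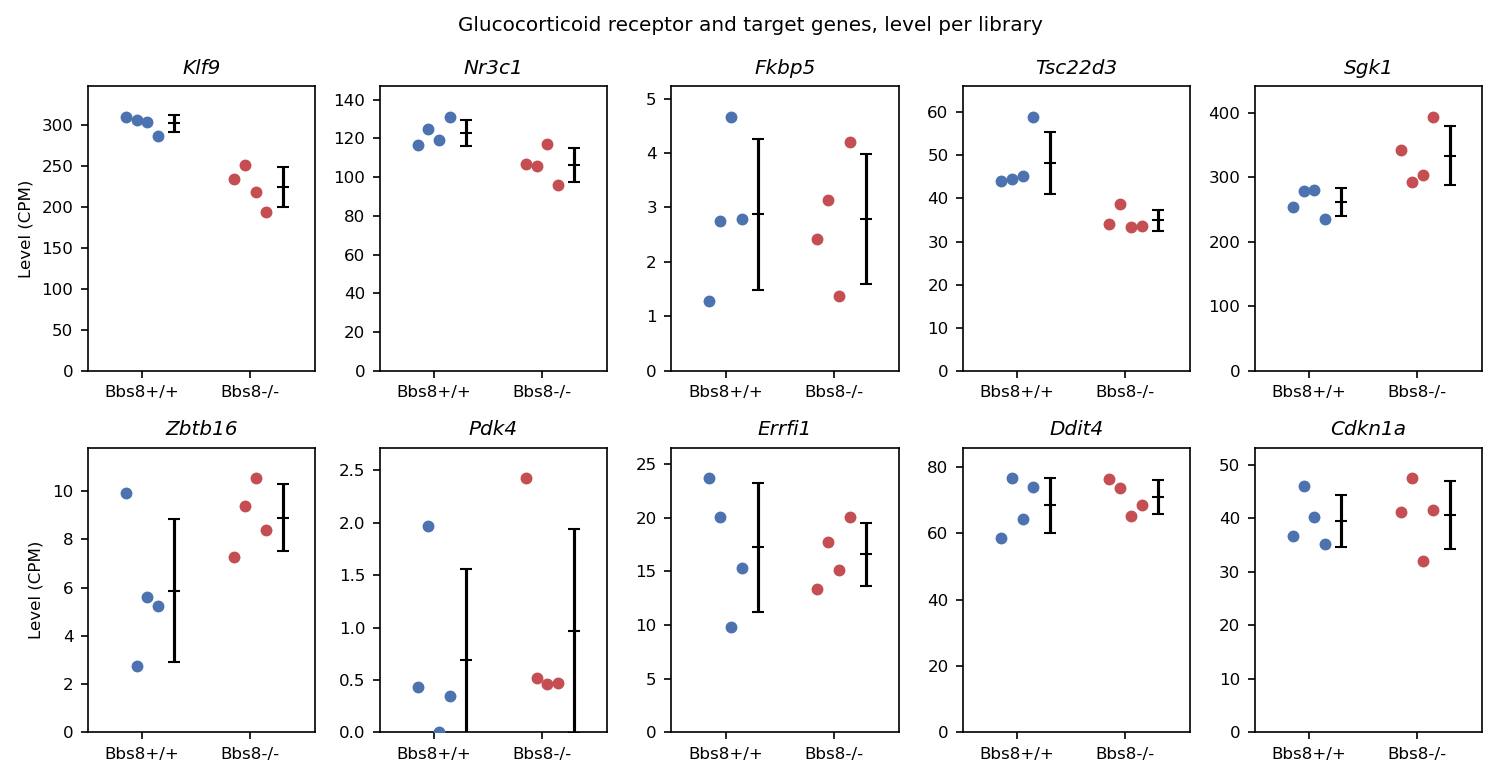
Level of each of the 10 members in CPM (y axis from 0, scaled per gene) in the 4 Bbs8+/+ libraries (blue) and the 4 Bbs8-/- libraries (red), with the mean and SD of each group in black. Klf9 and Tsc22d3 sit lower and Sgk1 higher in all 4 Bbs8-/- libraries, and Fkbp5 and Pdk4 never exceed 4.67 CPM.

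Klf9 encodes a zinc finger repressor of the Krüppel-like family that binds GC-rich promoters and is among the quickest genes to respond to glucocorticoid and thyroid hormone. Its identifier is ENSMUSG00000033863, and the gene lies on chromosome 19 from 23141226 to 23168134 on the plus strand. Klf9 was at 309.8, 306, 304 and 287 CPM in Bbs8+/+ replicates 1 to 4. In Bbs8-/- replicates 1 to 4 it was at 234, 251, 218 and 193 CPM. Every Bbs8-/- library lay below every Bbs8+/+ library, and the Bbs8-/- libraries were spread more widely. The means were 301 ± 10.2 and 224 ± 24.6 CPM (SD, n = 4 each). Klf9 fell by 0.43 on the log2 scale (SE 0.0729, edgeR FDR 8.11e-06), which is 0.742 times the control level with a 95% interval from 0.672 to 0.82. Between 386 and 821 reads per library stood behind these levels. The call held in all 16 alternative fits, among which the log2 fold change ranged from -0.49 without Bbs8-/- replicate 2 to -0.36 without Bbs8-/- replicate 4.

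Other marker levels moved along with Klf9 in these bulk samples, in which fewer cells of a type and less RNA per cell cannot be told apart. The 7 fibroblast markers summed to 34161 to 35902 CPM in Bbs8+/+ and 26800.5 to 27977 CPM in Bbs8-/-, although only 4 of the 7 had a log2 fold change below 0. Most of this sum and of its fall lay in Col1a1 (11698 and 8737 CPM on average) and Col1a2 (15096 and 10294 CPM). Dcn, Lum and Dpt were above 0, so the sum does not describe fibroblast genes in general. The 9 melanocyte and pigment markers summed to 14047 to 14746 and 11645 to 12220.1 CPM, with 8 of 9 below 0. Dct held most of this sum, at 10361 and 8721 CPM on average. At FDR 0.05, 6 of the 9 were lower, whereas Kit (-0.03), Sox10 (-0.05) and Tyr (0.02) were near 0 and did not pass. The 8 endothelial markers overlapped between the genotypes, at 800 to 835 and 756 to 856 CPM, with 4 of 8 below 0. In the other direction, the lens markers summed to 209 to 235 and 338 to 367 CPM with 10 of 11 above 0, those of macrophages to 411 to 449.8 and 487 to 537 CPM with 6 of 7 above 0, and those of skeletal muscle to 2421 to 2556 and 2673 to 2823 CPM with 6 of 8 above 0. Over 7 genes of a rod photoreceptor list of 8, the sum was 312 to 333 CPM in Bbs8+/+ and 238 to 316 CPM in Bbs8-/-, overlapping, with 5 of 7 below 0. Over 7 genes of a list of 8 for Schwann cells and myelin, written after the data had been seen and sharing Sox10 with the pigment list, it was 417 to 490.3 and 375 to 448 CPM, overlapping, with 7 of 7 below 0. The gene left out of each of these lists is not reported here, and both overlaps hold only without it, since neither full sum overlapped between the genotypes. Of the 7 rod genes, 1 passed FDR 0.05, Gnat1, which encodes the rod transducin subunit and changed by -0.86 on the log2 scale, while Rom1 and Nrl were at 0.30 and 0.51 without passing. No marker of the first 6 lists was at 3 counts or fewer in all libraries. The lymphocyte markers Cd3e, Cd79a and Cd8a did not exceed 3 counts in any library, and Cd4 reached 6. Cryab held most of the lens sum in Bbs8+/+, and the median log2 fold change of the 11 lens genes was 1.44, with 5 of them past FDR 0.05. Mitochondrial genes took 3.59% to 3.82% of counts in Bbs8+/+ and 3.19% to 3.33% in Bbs8-/-, and reads outside annotated genes were 42.1% to 43.4% and 44.1% to 44.4% of uniquely aligned reads, without overlap in either measure. The part of these cell types and measures in the level of Klf9 was not tested.

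Sgk1 encodes a serine/threonine kinase that raises the number of epithelial sodium channels and other transporters at the cell surface, and it is induced by glucocorticoids, mineralocorticoids and changes in cell volume. The gene, ENSMUSG00000019970, lies on chromosome 10 from 21882184 to 21999903 on the plus strand. Sgk1 was at 254, 279, 279.7 and 236 CPM in Bbs8+/+ replicates 1 to 4 and at 343, 292, 304 and 394 CPM in Bbs8-/- replicates 1 to 4. The groups did not overlap, although the gap between the highest Bbs8+/+ and the lowest Bbs8-/- library was small beside the spread within Bbs8-/-. The means were 262 ± 21.4 and 333 ± 45.9 CPM (SD, n = 4 each). Sgk1 rose by 0.35 on the log2 scale (SE 0.0721, edgeR FDR 0.0005), 1.27 times the control level with a 95% interval from 1.15 to 1.41. The call held in all 16 alternative fits, and the least change was 0.26 without Bbs8-/- replicate 4 (edgeR FDR 0.0494).

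Klf9 and Sgk1 are both regarded as induced targets of the same receptor, and they moved in opposite directions here. The reads of Sgk1 per read of Klf9 in the same library, a ratio that does not depend on library scaling, were 0.819, 0.913, 0.922 and 0.822 in Bbs8+/+ replicates 1 to 4. In Bbs8-/- replicates 1 to 4 they were 1.46, 1.16, 1.40 and 2.04. Bbs8-/- replicate 4 had the lowest Klf9 and the highest Sgk1 of the 8 libraries. In Bbs8+/+ replicate 4, by contrast, both genes were the lowest of their genotype.

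Tsc22d3 encodes GILZ, a leucine zipper protein that mediates part of the anti-inflammatory action of glucocorticoids by restraining NF-kappaB and AP-1. The gene, ENSMUSG00000031431, lies on chromosome X from 140539528 to 140600659 on the minus strand. Tsc22d3 was at 43.9, 44.4, 45.3 and 59.0 CPM in Bbs8+/+ replicates 1 to 4 and at 34.0, 38.6, 33.5 and 33.6 CPM in Bbs8-/- replicates 1 to 4. All Bbs8-/- libraries lay below the Bbs8+/+ libraries, and Bbs8+/+ replicate 4 stood well above the other 3 of its group. The means were 48.2 ± 7.24 and 34.9 ± 2.48 CPM (SD, n = 4 each). The log2 fold change of -0.47 (SE 0.156) was about the size of that of Klf9 but did not pass the threshold (edgeR FDR 0.0942), at 0.722 times the control level with a 95% interval from 0.583 to 0.893. Without Bbs8+/+ replicate 4 the change was -0.35 (edgeR FDR 0.384), and it was -0.61 (edgeR FDR 0.0225) with all libraries thinned to the smallest total. The X-linked transcript Xist was at 646 to 761 CPM of unscaled counts in Bbs8+/+ and 571 to 629 CPM in Bbs8-/-, and the part of sex composition in the level of Tsc22d3 was not tested.

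The receptor itself did not pass the test. Nr3c1, ENSMUSG00000024431 on chromosome 18 from 39410545 to 39519421, was at 116, 125, 119 and 131 CPM in Bbs8+/+ replicates 1 to 4 and at 107, 105, 117 and 95.7 CPM in Bbs8-/- replicates 1 to 4. Bbs8-/- replicate 3 reached into the range of the controls, and the other 3 lay below it. The change was -0.21 on the log2 scale (SE 0.0978, edgeR FDR 0.326), and the 95% interval of the ratio to control ran from 0.755 to 0.987.

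**Figure D2:**
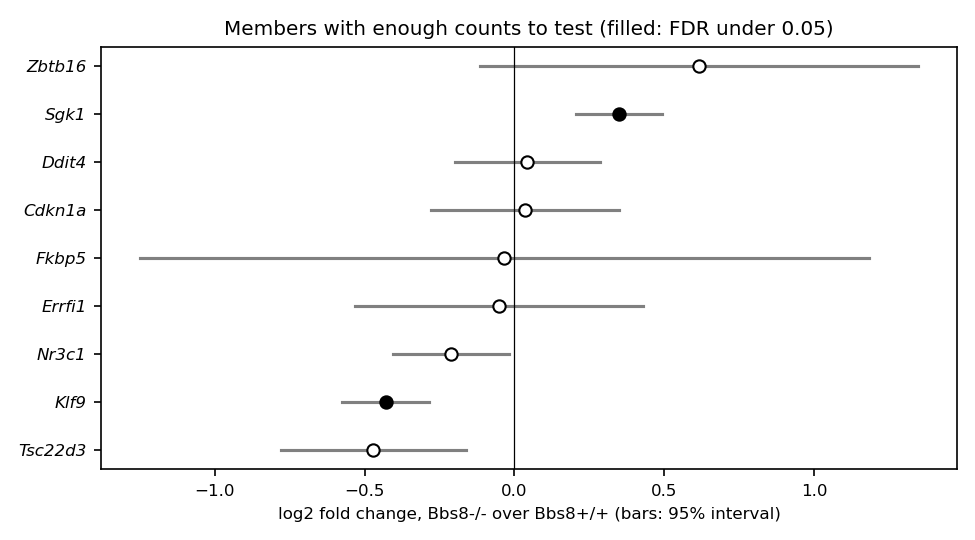
Log2 fold change of Bbs8-/- over Bbs8+/+ (x axis) for the 9 tested members, with 95% intervals from the fit over all genes. Filled points, Klf9 at -0.43 and Sgk1 at 0.35, passed FDR 0.05, and open points did not.

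The remaining members overlapped between the genotypes. Ddit4, which encodes REDD1, an inhibitor of mTORC1 signaling, was at 58.6 to 76.7 CPM in Bbs8+/+ and 65.1 to 76.4 CPM in Bbs8-/-. Its ratio to control was 1.03 with a 95% interval from 0.871 to 1.22 (edgeR FDR 0.936). Cdkn1a, which encodes the cell cycle inhibitor p21, was at 35.3 to 46.0 CPM and 32.1 to 47.5 CPM. For Cdkn1a the ratio was 1.03 with an interval from 0.825 to 1.27 (edgeR FDR 0.957). The genotypes thus shared most of their range for both genes.

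Errfi1, which encodes the EGF receptor inhibitor MIG6, was at 23.7, 20.05, 9.81 and 15.4 CPM in Bbs8+/+ replicates 1 to 4 and at 13.3 to 20.1 CPM in Bbs8-/-. The control libraries alone thus spanned a wider range than all Bbs8-/- libraries, and the ratio to control was 0.964 with an interval from 0.692 to 1.34 (edgeR FDR 0.96). Errfi1 is overlapped on the opposite strand by the counted gene 1700045H11Rik, and because the sources do not state whether counting used strand, reads of the pair may not be separated. Zbtb16 encodes PLZF, a zinc finger repressor that is among the most strongly induced receptor targets in many human cells. It had 7 to 23 reads per library, at 9.91, 2.75, 5.60 and 5.24 CPM in Bbs8+/+ replicates 1 to 4 and 7.28, 9.40, 10.5 and 8.40 CPM in Bbs8-/- replicates 1 to 4. Only Bbs8+/+ replicate 1 reached the range of the Bbs8-/- libraries. The ratio was 1.53 with an interval from 0.923 to 2.54 (edgeR FDR 0.505). On the log2 scale its change of 0.62 became 0.38 without Bbs8+/+ replicate 2 and 0.98 without Bbs8+/+ replicate 1, neither past the threshold.

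A pair of widely used reporters of glucocorticoid action was close to the limit of the depth. Fkbp5, which encodes the co-chaperone FKBP51 and feeds back on the receptor, had between 3 and 10 reads in each library. Its ratio to control was 0.977 with an interval from 0.42 to 2.27 (edgeR FDR 0.991), so a change of less than about that width was not detectable at this depth. Pdk4, a kinase that shuts off pyruvate dehydrogenase in fasting, had 1, 5, 0 and 1 reads in Bbs8+/+ replicates 1 to 4 and 4, 1, 1 and 1 reads in Bbs8-/- replicates 1 to 4, and it was not tested. A count of 0 in Bbs8+/+ replicate 3 allows a level of up to 1.39 CPM.

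No library was high or low throughout the list. Across the 9 tested members, each Bbs8+/+ library was the highest of its genotype for 2 or 3 genes and the lowest for 1 to 4. For Bbs8-/- libraries the numbers were 1 to 3 and 1 to 4. The 9 genes thus did not share an order of libraries.

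The profile of Klf9 was compared with those of 6625 other genes of at least 20 CPM. The measure was the root mean square difference between standardized log2(CPM + 1) values over the 8 libraries, which is 0 for identical profiles and includes the difference between genotypes. Of the nearest 5, those given here were Srf at 0.19, Col4a2 at 0.193, Angpt1 at 0.275 and Stard13 at 0.306. Srf encodes a transcription factor of actin-regulated and growth-responsive genes, Col4a2 a chain of basement membrane collagen, Angpt1 a ligand of the endothelial receptor Tek, and Stard13 a GTPase-activating protein. For Srf the log2 fold change was -0.47 (edgeR FDR 0.217), for Col4a2 -0.27 (0.0328), for Angpt1 -0.32 (0.0104) and for Stard13 -0.25 (0.324). The call of Col4a2 was lost in 7 of 16 alternative fits and that of Angpt1 in 1.

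Among members, Tsc22d3 came nearest to Klf9, with a difference of 0.619 and rank 225 of the 6625. Nr3c1 followed at 0.653 with rank 293, and Sgk1 lay at 1.80 with rank 6514. The members' order in likeness to Klf9 largely restates the side on which each Bbs8-/- group lay, since the measure includes it.

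**Figure D3:**
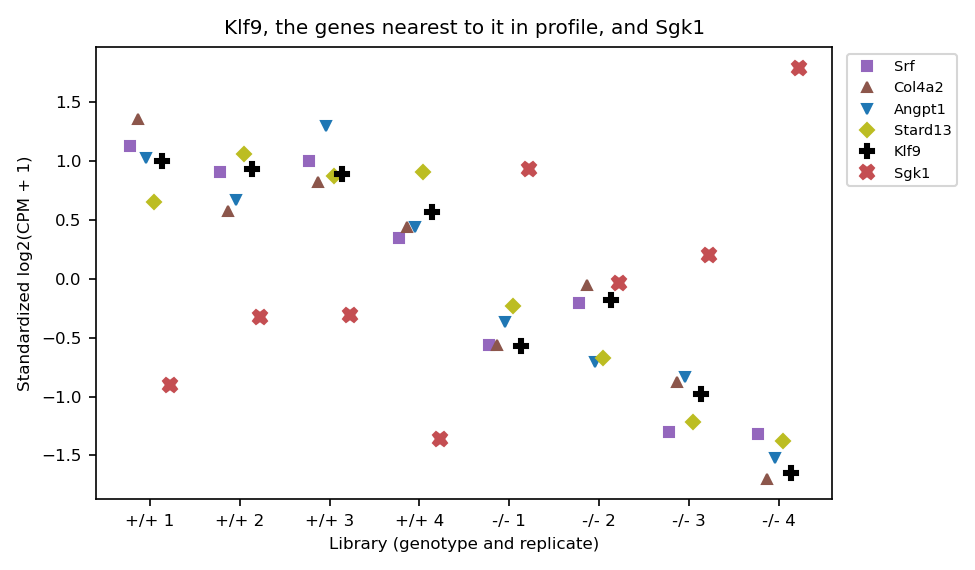
Standardized log2(CPM + 1) (y axis, mean 0 and SD 1 per gene) in each of the 8 libraries (x axis, genotype and replicate) for Klf9, 4 of the 5 genes nearest to it in profile, and Sgk1. The 4 genes follow Klf9 closely, with root mean square differences of 0.19 to 0.306, whereas Sgk1 is low in the Bbs8+/+ libraries and highest in Bbs8-/- replicate 4.

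The wider pathway was examined with lists written from general knowledge of the receptor, with earlier results of these data known, so their counts are no independent evidence. The receptor machinery list holds chaperones, immunophilins, coactivators and corepressors, and all 22 of its genes were tested. Of these, 1 rose and 0 fell at FDR 0.05, beside 1.1% and 1.14% of all tested genes, and DESeq2 also gave 1 and 0. An unadjusted p under 0.05 was found for 5 of 22, beside 13% of all tested genes (1792 of 13813). Hsp90ab1, the constitutive Hsp90 that keeps the receptor able to bind hormone, rose from 1527 ± 99.5 to 1726 ± 64.4 CPM (SD, n = 4 each, log2 fold change 0.18, edgeR FDR 0.00996), a call that 3 of 8 fits leaving out a library did not keep (edgeR FDR 0.06 without Bbs8+/+ replicate 1, 0.0764 without Bbs8+/+ replicate 4 and 0.0591 without Bbs8-/- replicate 4). The inducible Hsp90aa1 was at 651 and 649 CPM on average, a log2 fold change of 0.00. The list had a median of -0.01 with 14 of 22 genes below 0, beside 50.5% of all tested genes below 0.

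Enzymes and transporters that set the local supply of corticosteroid were examined next. Of 10 genes, 7 were tested, 0 passed FDR 0.05 in either direction by edgeR or DESeq2, and 0 had an unadjusted p under 0.05, beside 2.24% and 13% of all tested genes. Abcb1a, an efflux pump for glucocorticoids, averaged 31.4 and 26.1 CPM (log2 fold change -0.27, edgeR FDR 0.593), and H6pd, which supplies cofactor to Hsd11b1 in the endoplasmic reticulum, averaged 9.08 and 7.34 CPM (-0.32, edgeR FDR 0.776). Leaving out a library moved Abcb1a to between -0.43 (without Bbs8-/- replicate 2) and -0.11 (without Bbs8-/- replicate 3), and H6pd to between -0.51 (without Bbs8-/- replicate 1) and -0.16 (without Bbs8-/- replicate 2), with no call in either gene. Hsd11b1, singled out after its values were seen because it regenerates active corticosterone, averaged 1.14 and 1.32 CPM, and a difference was not detectable at this depth.

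A list of 32 further induced targets gave 28 tested genes, of which 2 rose and 1 fell at FDR 0.05, beside 1.1% and 1.14% of all tested genes. Mt1 and Mt2, metallothioneins that bind zinc and are induced by metals and by glucocorticoids, rose together. Mt1 went from 863 ± 14.9 to 1042 ± 30.7 CPM (0.27 on the log2 scale, edgeR FDR 4.48e-05) and Mt2 from 323 ± 15.9 to 387 ± 19.6 CPM (0.26, edgeR FDR 0.00778; SD, n = 4 each). The call of Mt2 was lost without Bbs8+/+ replicate 2 (edgeR FDR 0.0511) and without Bbs8-/- replicate 2 (edgeR FDR 0.0722). Rhob encodes a small GTPase of endosomes that is also an early response gene. Its level was 62.5, 49.5, 50.9 and 41.9 CPM in Bbs8+/+ replicates 1 to 4 and 28.5, 27.7, 35.8 and 32.2 CPM in Bbs8-/- replicates 1 to 4, and it fell by 0.71 on the log2 scale (edgeR FDR 0.00195).

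The other 25 tested genes of this list did not pass, and 8 of the 28 had an unadjusted p under 0.05, beside 13% of all tested genes. The median was -0.15 with 21 of 28 genes below 0, beside 0.00 and 50.5% for all tested genes. For 8 of the 28, the genotypes had no overlapping libraries, beside 7.38% of all tested genes.

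Of 13 genes that glucocorticoids usually repress, such as cytokines, 4 were tested and 0 passed FDR 0.05 by edgeR or DESeq2, with 0 at an unadjusted p under 0.05, beside the same 2.24% and 13%. Vcam1 averaged 42.8 and 41.3 CPM and Icam1 25.4 and 28.4 CPM, both adhesion molecules for leukocytes. The remaining 9, Il6 and Tnf among them, were too low to test.

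The Krüppel-like family was listed to place Klf9 among its relatives. Of 16 other members 13 were tested, 0 passed FDR 0.05 by edgeR or DESeq2, and 3 had an unadjusted p under 0.05, beside 13% of all tested genes. The members with the highest CPM, which the naming rule takes up, were Klf3, at 219 and 224 CPM on average (log2 fold change 0.03, edgeR FDR 0.919), and Klf7, at 152 and 142 CPM (-0.09, edgeR FDR 0.761). Klf13, a close relative of Klf9 that shares its GC-box binding and was singled out by that relation, averaged 126 and 119 CPM (-0.08, edgeR FDR 0.791). Klf2, singled out after its values were seen, went from 59.7 ± 9.09 to 43.4 ± 5.34 CPM without overlap (SD, n = 4 each, -0.46, edgeR FDR 0.0601). The family median was -0.10, with 10 of 13 genes below 0, beside 50.5% of all tested genes.

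**Figure D4:**
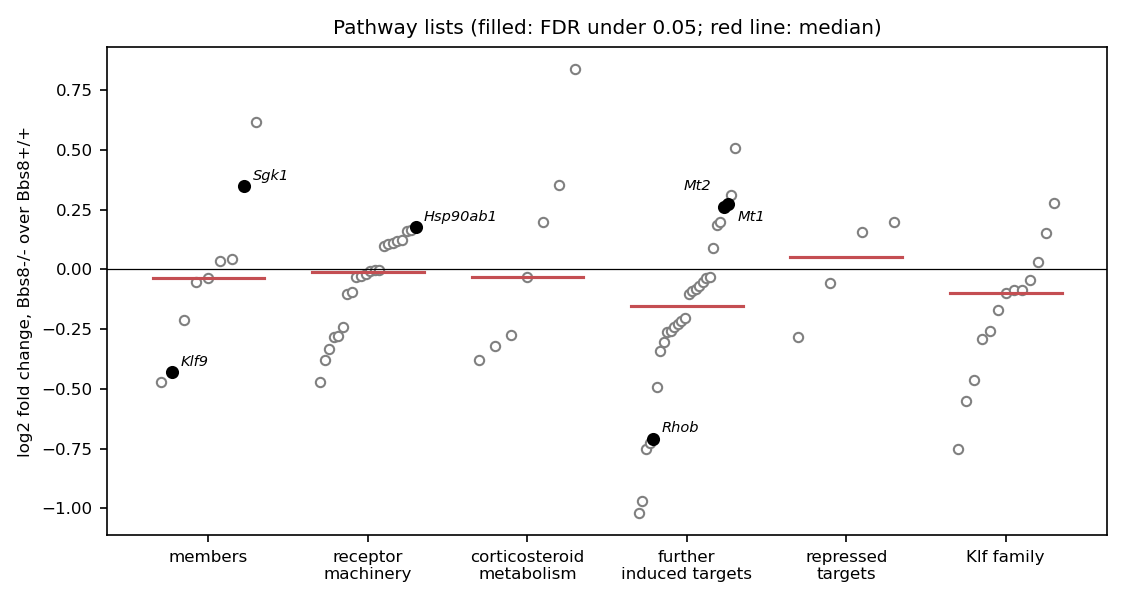
Log2 fold change of Bbs8-/- over Bbs8+/+ (y axis) for every tested gene of the member list and of 5 pathway lists (x axis, genes ordered by value within a list). Filled, named points passed FDR 0.05, open points did not, and red lines mark list medians, which run from -0.15 for further induced targets to 0.05 for repressed targets.

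**Figure D5:**
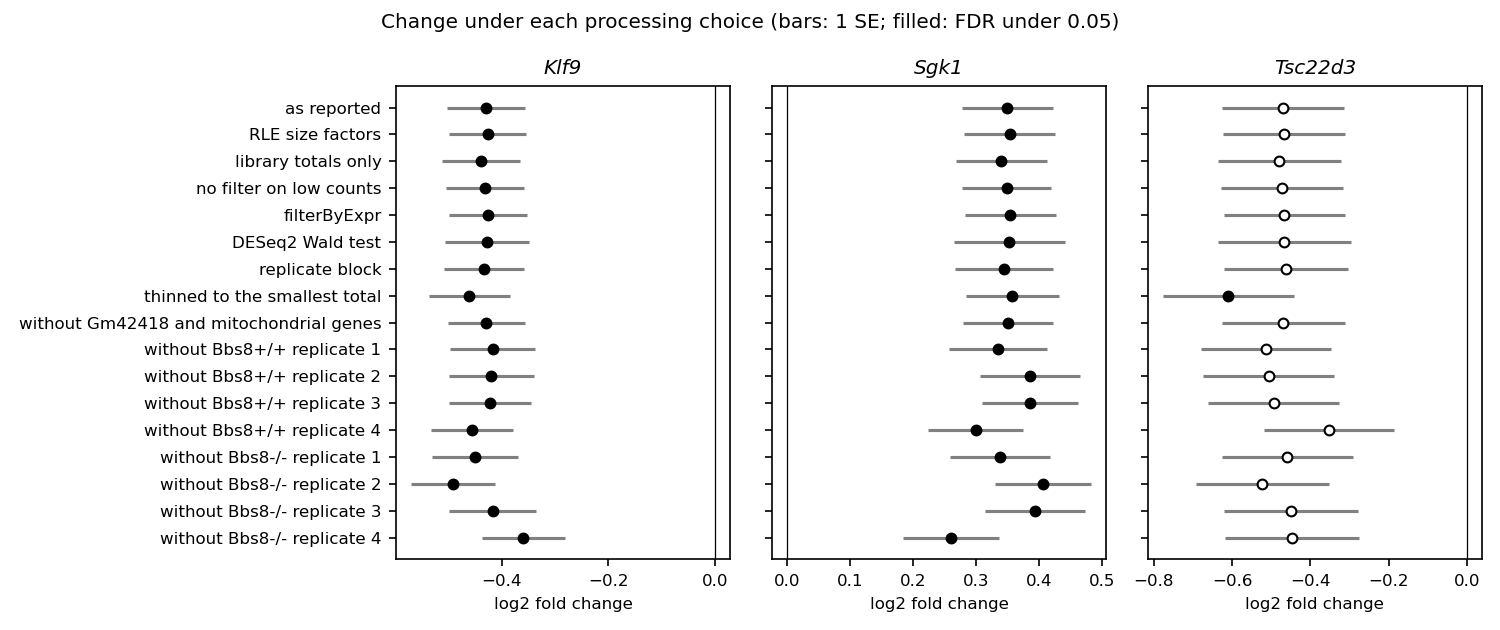
Log2 fold change (x axis, with 1 standard error) of Klf9, Sgk1 and Tsc22d3 as reported and under each of 16 alternative fits (y axis). Klf9 and Sgk1 stayed past FDR 0.05 (filled) in all 16, and Tsc22d3 passed in 1, with libraries thinned to the smallest total.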

How the data were processed

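Each deposited file held the raw gene counts of 1 library, from reads with a unique alignment. Per the methods of the study, the authors trimmed reads with BBDuk, aligned them with STAR to mm10 with an Ensembl release 93 gene model and counted them with htseq-count. Counter summary lines were left out of library totals. The authors' filter on multi-mapped reads was not applied. Symbols and positions (1-based) came from GENCODE M21 on the same assembly, which held 31011 of 31053 identifiers.

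The quasi-likelihood F test (edgeR 4.0.16, R 4.3.3, TMM, two-sided) was run over all 8 libraries on genes reaching 1 CPM in 4 or more libraries, with genotype as the factor and Benjamini-Hochberg adjustment over all tested genes at FDR 0.05. Levels are TMM-normalized CPM, except Xist and Y-linked genes. A standard error is the log2 fold change divided by the square root of F, and intervals use the degrees of freedom of the fit. Levels of different genes were ranked only to apply the naming rule. Intervals include the spread between libraries that the fit estimated, whereas the floors cover counting error only. No molecular identifiers were named.

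The members and lists were chosen with earlier results of these data known. Named genes were the members, Ttc8, list genes past FDR 0.05 (otherwise the most abundant, up to 2 a list) and the 5 genes nearest to Klf9 in profile, and some items that met these rules are not reported here. Two-sided exact permutation tests on summed marker levels gave p = 0.0286, the smallest that 4 against 4 libraries allow, for RPE, pigment, lens, fibroblast, muscle and macrophage markers, 0.514 for endothelium and 0.0857 for 5 erythroid markers (5152 to 5719 and 5631 to 6487 CPM) and for the reported 7 genes each of the rod and the Schwann cell lists, both of which gave 0.0286 with their full 8 genes. No files were identical, and counts of libraries of 1 genotype differed by more than Poisson noise, with a mean chi-square of 1.91 to 3.23 where 1 is expected. The labels give separate samples, and no source ties them to separate litters. On simulated counts for this comparison (13813 genes), the test recovered 61 of 100 genes changed by 1 on the log2 scale and 23 of 100 changed by 0.5, with 3 false calls among 87. Alternatives were RLE factors, totals only, no filter, filterByExpr, DESeq2 1.42.0, the replicate block, thinning, leaving out Gm42418 and mitochondrial genes, FDR 0.01, and leaving out each library (filter then in 3 libraries).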

Additional observations from a re-analysis of the deposited data

Results flagged for a closer look

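Over 72 groups of 4 libraries (named genes and summed marker levels), 2 held a library set apart from the other 3 by most of the group's range, where chance gives about 3.6. Both were in Tsc22d3. It was 58.99 CPM in Bbs8+/+ replicate 4 against 43.9 to 45.3 CPM in the other Bbs8+/+ libraries, and 38.63 CPM in Bbs8-/- replicate 2 against 33.5 to 34.0 CPM in the other Bbs8-/- libraries. No explanation was tested.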

How the results depend on the processing

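At FDR 0.01, 93 genes were higher and 81 lower. With the replicate number as a block, 134 were higher and 129 lower, Klf9 changed by -0.43 and Ttc8 by -1.97, and the call of Col4a2 was lost (-0.28, edgeR FDR 0.054), while the block changed no call among the other 25 genes it was run for. Deviations of same-numbered libraries correlated at -0.056 to 0.020 over 6626 genes, and 1 of 4 Bbs8+/+ libraries correlated best with its own number. Whether same-numbered libraries shared a litter or a preparation cannot be told from these values. With libraries thinned, 2 members were lower, Klf9 and Tsc22d3. Leaving out 1 library at a time, genes higher numbered 116 to 186 and lower 107 to 152, receptor machinery calls were 0 to 1 in each direction, further induced targets 1 to 2 higher and 1 to 3 lower, Klf family 0 to 1 lower, Klf9 -0.49 to -0.36 and Ttc8 -2.45 to -1.70.

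Of 411 values of 26 genes chosen by the rule, 379 kept direction and side of the threshold. Of the others, 18 reversed, each in a gene near 0 with no call. Fkbp5 and Vcam1 were 0.090 and 0.039 after thinning, and Hsp90aa1 was 0.00047 with filterByExpr. With 1 library left out, Fkbp5 ranged from -0.31 to 0.27, Errfi1 from -0.23 to 0.13, Ddit4 from -0.024 to 0.10, Cdkn1a from -0.050 to 0.14, Hsp90aa1 from -0.044 to 0.041 and Vcam1 from -0.14 to 0.057. The cause was not tested. Depth limits Fkbp5, Pdk4, Hsd11b1 and the cytokines too low to test.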

Other observations

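The spread between libraries differed among the members. The biological coefficient of variation that edgeR estimated for Sgk1 was 0.0696, above 92.4% of the 500 tested genes nearest to it in abundance, and that of Errfi1 was 0.173, above 74.4%. For Klf9 it was 0.0666 (44.4%), for Tsc22d3 0.111 (32.6%) and for Nr3c1 0.077 (24.6%). These are descriptions of 8 libraries, with no test.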
